A study of Homo sapiens with 3 samples.

Results

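The G2/M and mitosis genes are late cell-cycle genes whose products take a cell through the G2 phase and division. A list of 53 of them was taken by gene name out of 63241 genes quantified by ribosome profiling (Ribo-seq), and all 53 were found in the table and tested. Ribo-seq sequences the stretch of mRNA inside a ribosome, so that footprints on a gene count the ribosomes on its mRNA. The cells were of the human line HEK293T, derived from embryonic kidney, and they expressed WT p53, G245S p53 or R273H p53, the latter 2 being substitutions in the DNA-binding domain. There were 3 dishes in each group, and the 3 dishes of a group were joined in 1 pool at reverse transcription, so that group and pool cannot be told apart.

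The study's methods describe lines made with lentivirus and puromycin selection, with no selection of clones stated. The labels call all cells stable but also give transient expression as the genotype of all 3 groups, and for G245S and R273H they name lipofection of a wt construct 24 h before collection as the treatment; groups were taken from the sample titles. All groups carry a p53 construct and, as HEK293T cells, the SV40 large T antigen, which is known to bind p53 and the RB family, and cells without a construct were not analysed here. Libraries held 18.7 to 24.6 M counts. KRT18, an epithelial keratin, had 107.2 to 121.6 CPM (the count scaled to a common library size). NEFM, a neurofilament that HEK cells are known to express, had 254.6 to 284.9 CPM, while the epithelial markers EPCAM and CDH1 stayed below 8.63 CPM. The T cell marker CD3E had 0 counts in all libraries and the endothelial marker PECAM1 had at most 1. Markers of other cells were not all absent: the fibroblast collagens COL1A1 and COL3A1 had 24.74 to 34.23 and 3.38 to 5.28 CPM. CDKN1A, the gene of the CDK inhibitor p21 and a direct p53 target, had 63.54, 60.71 and 59.04 CPM in the WT dishes, 16.15, 16.47 and 15.78 in G245S and 13.46, 14.44 and 13.67 in R273H, and MDM2, a p53 target that degrades p53, had a mean of 860.3 CPM in WT against 76.8 in G245S and 76.7 in R273H.

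As background, p53 is known to lower late cell-cycle genes indirectly. It induces p21, p21 holds back the cyclin-dependent kinases, and RB-like proteins that stay unphosphorylated then assemble with E2F and the MuvB core into the DREAM complex, which represses its targets. In cycling cells MuvB instead joins B-MYB (the product of MYBL2) and later FOXM1 and activates the same genes. MuvB reaches them through a promoter element called the cell cycle genes homology region (CHR), often beside CCAAT boxes, the sites of the factor NF-Y.

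The letters of these elements were searched in the RefSeq promoter table (GRCh38.p14), which gives 250 bases before to 50 after each start. It held 58 promoters of 46 of the 53 genes, and AURKA, BIRC5, BUB3, FOXM1, TPX2, TTK and UBE2C did not match. Searched on both strands, TTTGAA, the usual CHR, was in 35 of the 58 promoters (60.3%) against 15.2% of all 35116 promoters in the table. TTTAAA, a second form (the same on both strands), was in 27.6% against 12.2%, and CCAAT, whose matches can overlap those of a CHR, in 74.1% against 34.6%. TTTGAA or TTTAAA together with CCAAT was in 56.9% of the members' promoters against 9.3% of all. Counted by gene over any of its promoters, 38 of 46 members (82.6%) had TTTGAA or TTTAAA against 27.9% of 27305 genes. AURKB, BUB1, CCNA2, CDC25A, CDCA5, MYBL2, NEK2 and SPC24 had neither in this window. Other forms of the CHR were not searched, so these 8 genes may still carry one. The 8 stretches shown here are the 100 bases before the RefSeq start, 5′ to 3′ on the gene's strand, with CHR and CCAAT letters of either strand in capitals (ATTGG is CCAAT on the other strand). CCNB1, CCNB2 and CDC20 are shown as members with both kinds of element close to the start, KIF20A, MKI67 and SPC24 because their footprints differed between the mutants, and ASPM and BUB1 because theirs rose in both mutants:
CCNB1 (chr5:69167050-69167149, plus strand): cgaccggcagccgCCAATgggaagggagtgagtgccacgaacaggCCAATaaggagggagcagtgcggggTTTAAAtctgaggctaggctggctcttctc
CCNB2 (chr15:59105046-59105145, plus strand): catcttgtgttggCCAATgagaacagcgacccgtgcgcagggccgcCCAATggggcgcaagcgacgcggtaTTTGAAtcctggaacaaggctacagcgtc
CDC20 (chr1:43358881-43358980, plus strand): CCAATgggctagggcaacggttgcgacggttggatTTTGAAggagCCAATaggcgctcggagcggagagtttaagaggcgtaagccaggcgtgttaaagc
KIF20A (chr5:138179012-138179111, plus strand): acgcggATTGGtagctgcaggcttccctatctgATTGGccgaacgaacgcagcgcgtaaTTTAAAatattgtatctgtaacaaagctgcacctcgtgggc
MKI67 (chr10:128126424-128126523, minus strand): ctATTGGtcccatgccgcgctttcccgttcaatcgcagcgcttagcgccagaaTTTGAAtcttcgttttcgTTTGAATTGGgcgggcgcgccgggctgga
ASPM (chr1:197146670-197146769, minus strand): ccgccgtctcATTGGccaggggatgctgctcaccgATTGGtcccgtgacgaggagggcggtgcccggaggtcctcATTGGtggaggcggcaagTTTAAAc
BUB1 (chr2:110678064-110678163, minus strand): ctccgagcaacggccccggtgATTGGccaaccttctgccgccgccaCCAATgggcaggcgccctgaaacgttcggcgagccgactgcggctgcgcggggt
SPC24 (chr19:11155783-11155882, minus strand): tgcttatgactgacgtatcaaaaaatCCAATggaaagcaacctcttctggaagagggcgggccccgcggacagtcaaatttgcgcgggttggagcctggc

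Within these 100 bases, CCNB1 and CCNB2 have CCAAT letters upstream of a CHR and MKI67 has 2 TTTGAA matches. BUB1 and SPC24 have CCAAT letters without TTTGAA or TTTAAA, the only CHR letters searched. Over the members' promoters, 22 of 48 TTTGAA matches began 1 to 50 bases before the start, and 43 of 87 CCAAT matches began 51 to 100 bases before it. TTTGAA was read on the gene's own strand in 38 matches and on the other strand in 10.

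**Figure D1:**
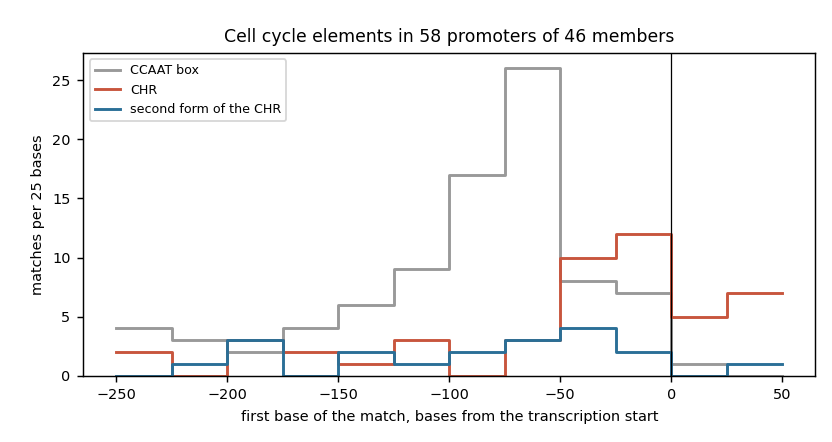
Number of matches per 25 bases (vertical axis) against the distance of the match's first base from the RefSeq transcription start (horizontal axis, bases), for the CHR, its second form and the CCAAT box in 58 promoters of 46 members. CHR matches gather just before the start, with 22 of 48 in the last 50 bases, and CCAAT matches lie upstream of them, with 43 of 87 between 51 and 100 bases before it; promoters of the same gene can overlap.

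Levels were compared between genes per kilobase of coding region (of the Ensembl canonical transcript), since a longer coding region holds more ribosomes. In WT cells the density was highest on CCNB1, the cyclin that activates CDK1 for entry into mitosis, at 454.2 ± 15.3 CPM per kb (SD, n = 3), followed by PTTG1 (securin, the inhibitor of separase) at 441.2 ± 11.8, UBE2C (the ubiquitin-conjugating enzyme of the anaphase-promoting complex, APC/C) at 437.4 ± 10.4 and BIRC5 (survivin) at 418.0 ± 12.6. Dishes of neighbours among these 4 genes overlapped, and a gap followed down to CDK1, the mitotic kinase, at 291.5 ± 14.5 CPM per kb. The lowest density was on PLK4, the kinase that sets centriole number, at 7.24 CPM per kb, 62.7 times below CCNB1. ASPM, a spindle pole protein, at 9.51, CENPE, a kinetochore motor, at 10.7 and KIF20B, a kinesin of cytokinesis, at 11.0 CPM per kb came next. Among the 52 pairs of neighbours in the order, 31 had overlapping dishes, and each member had at least 391.6 counts on average over the libraries.

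As a group the members took almost the same share of footprints in the 3 groups. Their summed level was 8641, 8720 and 9017 CPM in the WT dishes, 8781, 8796 and 8948 in G245S and 8666, 8733 and 8869 in R273H, so that the groups overlapped and dish 3 was the highest in each. In lysates of whole dishes, fewer cells in mitosis and fewer footprints per mitotic cell cannot be told apart. The means were 8793 ± 198 CPM in WT, 8842 ± 92.7 in G245S and 8756 ± 104 in R273H (SD, n = 3), with two-sided exact permutation p of 0.7 for G245S against WT, 0.9 for R273H against WT and 0.4 for G245S against R273H, where 3 dishes against 3 cannot go below 0.1. Over the same libraries CDKN1A fell by 1.92 on the log2 scale in G245S (edgeR adjusted p 4.26e-21) and fell by 2.14 in R273H (1.76e-22).

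**Figure D2:**
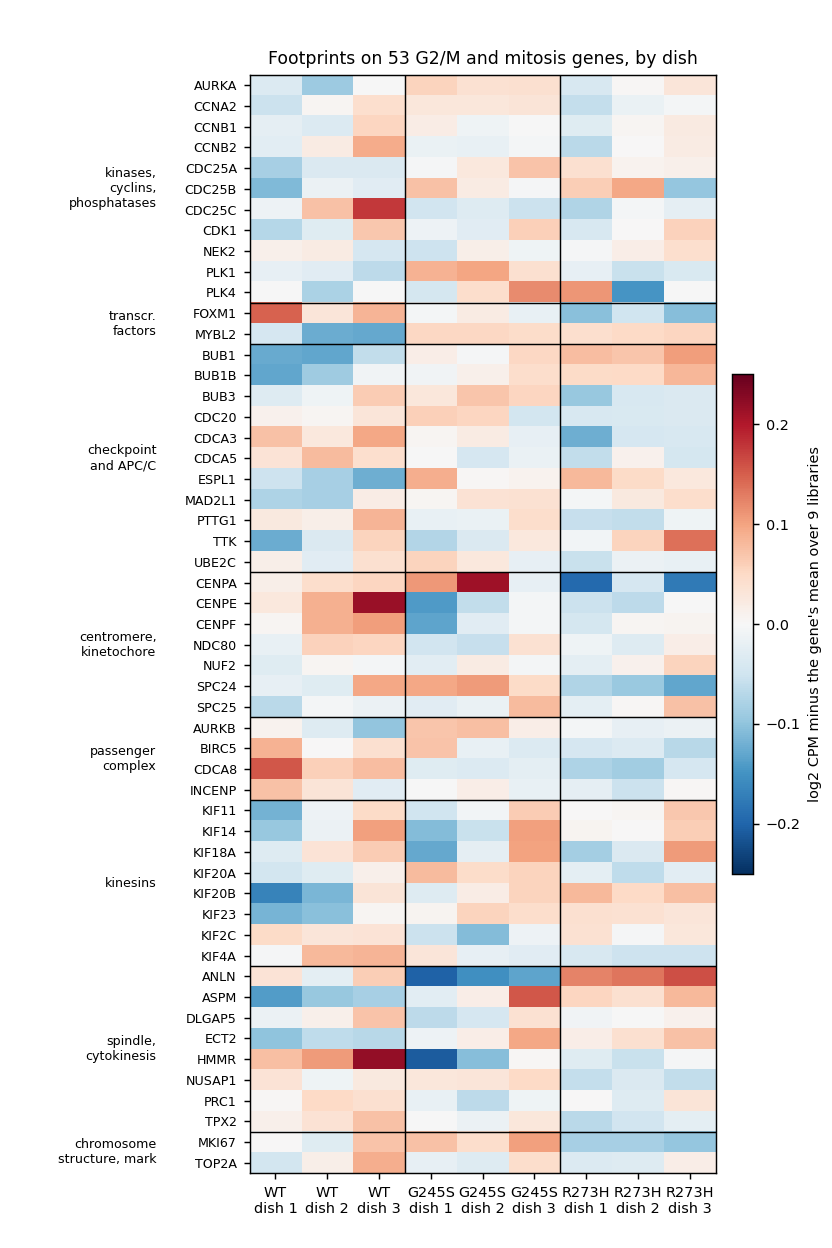
Log2 CPM of each of the 53 members (rows, grouped by role) in each dish (columns), as the difference from the gene's mean over the 9 libraries; red is above and blue below that mean. ANLN is low in the 3 G245S dishes and high in the 3 R273H dishes, MYBL2 and BUB1 are low in the WT dishes, and HMMR and CENPE are high there.

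Single genes did differ, by small amounts and in both directions. In G245S against WT, 19 of 53 members (35.8%) were called, that is, had an edgeR quasi-likelihood adjusted p under 0.05 over all genes tested; 12 rose and 7 fell, beside 24.7% of the 19820 genes tested (12.6% higher and 12.1% lower). In R273H against WT, 21 of 53 (39.6%) were called, 9 higher and 12 lower, beside 28.8% of all genes (14.2% higher and 14.6% lower). Calls are easier at higher counts, and among the 1917 genes between the lower and upper quartiles of the members' own levels (a range chosen after the values were seen) 48.4% were called in G245S and 54.9% in R273H. Median log2 fold changes of the members were 0.0074 in G245S and -0.023 in R273H, against -0.00069 and -0.0024 over all genes tested, and the single genes ran from -0.23 to 0.16 and from -0.18 to 0.19. The 95% interval stayed inside 1.2-fold in either direction for 51 of 53 members in each mutant, and when the change was tested against 1.2-fold instead of 0, none of the 53 was called in either mutant, beside 2.76% of all genes in G245S and 3.5% in R273H. Without adjustment, 22 members had an edgeR p under 0.05 in G245S and 29 in R273H. Over all 19820 genes 7083 and 7697 did, and of the 1917 genes at the members' levels 1141 and 1226. The split in R273H moved with the method: 11 higher and 7 lower were called with upper-quartile scaling, which raised the median of all genes by 0.016, and 9 higher and 8 lower with DESeq2. Of all genes tested under these settings, 29% and 22.2% were called. The counts also leaned on single dishes: 6 members rose in G245S without WT dish 2 or G245S dish 2 and 7 without WT dish 1, and in R273H 6 fell without WT dish 3 and 7 without R273H dish 1. Under every alternative other than the 1.2-fold minimum, 7 of the 19 calls in G245S and 9 of the 21 in R273H were kept. Both mutants were compared with the same 3 WT dishes. Dishes without overlap were common among all genes. In G245S all dishes lay above the WT dishes for 13 members and below them for 11. That held for 3694 and 3717 of all 19820 genes, and for 608 and 488 of the 1917 genes at the members' levels. In R273H the members numbered 10 and 16, all genes 4025 and 4145, and genes at the members' levels 659 and 561.

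**Figure D3:**
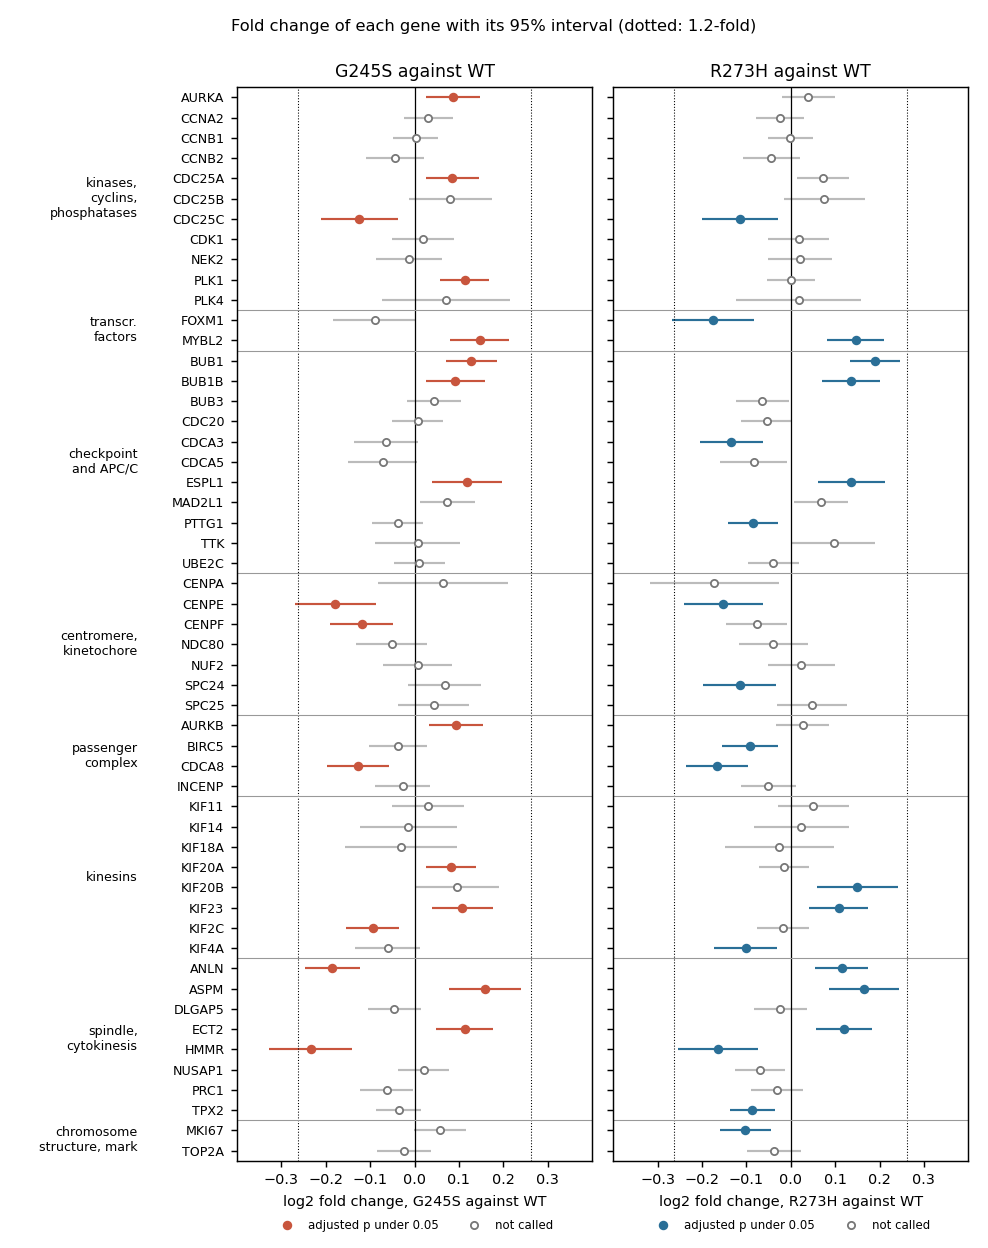
Log2 fold change (horizontal axes) of each member (rows, grouped by role) in G245S (left) and R273H (right) against WT, with its 95% interval; filled points had an adjusted p under 0.05 and dotted lines mark 1.2-fold. Most intervals lie between the dotted lines, and called genes lie on both sides of 0.

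Of the 11 kinases, cyclins and phosphatases, which start and drive mitosis, 3 rose and 1 fell in G245S and 1 fell in R273H. These calls were 36.4% in G245S and 9.09% in R273H, beside 24.7% and 28.8% of all genes. Among genes at the members' levels, 48.4% and 54.9% were called. CCNB1 had means of 591.3, 592.4 and 591.0 CPM in WT, G245S and R273H, and CDK1 had 260.6, 263.8 and 263.8 CPM; for CCNB1 the adjusted p were 0.959 and 0.985. The G245S increases were in PLK1, the Polo-like kinase, by 0.11 ± 0.03 (log2 fold change ± SE, here and for the other members), AURKA, a kinase of centrosome maturation, by 0.09 ± 0.03 and CDC25A, a phosphatase that activates CDKs, by 0.09 ± 0.03. Leaving out single dishes ended the calls of AURKA and CDC25A in 4 of 9 cases each, and that of PLK1 in none. Here and in what follows, the 9 cases include the dishes of the group not compared. All 19 G245S calls remained when any R273H dish was left out. CDC25C, the phosphatase that activates CDK1, was at 72.42, 76.87 and 82.57 CPM in the WT dishes, 70.67, 71.49 and 70.38 in G245S and 69.33, 72.84 and 71.89 in R273H. Its dishes overlapped between R273H and WT, and its decreases (-0.12 ± 0.04 in G245S and -0.11 ± 0.04 in R273H) lost their call in 5 and 7 of the 9 cases with a dish left out. CCNA2, CCNB2 (cyclins), CDC25B, NEK2 and PLK4 lay between -0.04 and 0.08 in both mutants without a call.

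The 2 transcription factors that act with MuvB went apart. MYBL2 was at 112.5, 106.3 and 106.1 CPM in the WT dishes, 120.1, 120.2 and 119.7 in G245S and 119.4, 120.0 and 120.3 in R273H, and all mutant dishes lay above all WT dishes. It rose by 0.15 ± 0.03 in each mutant (adjusted p 0.0011 and 0.000827). FOXM1 was at 51.18, 47.18 and 48.96 CPM in WT, 46.01, 46.88 and 45.63 in G245S and 42.98, 44.61 and 42.91 in R273H. It fell by 0.18 on the log2 scale in R273H (SE 0.04, adjusted p 0.0038), while its change in G245S was -0.09 ± 0.05 (adjusted p 0.16) and its difference between the mutants was not called (0.09 ± 0.05, adjusted p 0.368). FOXM1 overlaps ITFG2 and RHNO1 on the other strand, and whether counting used strand is not stated.

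Among the 11 genes of the spindle checkpoint and the APC/C with its substrates, the rises were shared by 3 genes. Calls in either direction were 27.3% in G245S and 45.5% in R273H, beside 24.7% and 28.8% of all genes and 48.4% and 54.9% at the members' levels. BUB1, a checkpoint kinase, was at 213.7, 213.0 and 223.4 CPM in the WT dishes, 235.8, 232.6 and 241.8 in G245S and 246.0, 244.8 and 250.8 in R273H, with no overlap of the mutant and WT dishes. It rose by 0.13 ± 0.03 in G245S (adjusted p 0.000986) and by 0.19 ± 0.03 in R273H (adjusted p 4.39e-06). BUB1B (BubR1, which holds the APC/C inactive) was at 134.5, 138.5 and 146.3 CPM in WT, 146.3, 148.6 and 151.7 in G245S and 152.3, 152.4 and 155.9 in R273H, so the WT and G245S dishes met at 146.3 and those of R273H were all higher. BUB1B rose by 0.09 ± 0.03 in G245S, a call that 4 of the 9 left-out dishes ended, and by 0.14 ± 0.03 in R273H. ESPL1 is separase, the protease that cuts cohesin at anaphase. It was at 75.35, 73.70 and 71.81 CPM in WT, 83.19, 78.25 and 78.55 in G245S and 82.62, 80.68 and 79.53 in R273H, and rose by 0.12 ± 0.04 and 0.14 ± 0.04; its G245S call was lost in 3 of 9 cases with a dish left out. Its inhibitor PTTG1 fell in R273H (-0.09 ± 0.03) and was at -0.04 ± 0.03 in G245S, where the adjusted p was 0.355; its R273H call was lost in 3 of 9 cases. CDCA3, a protein of mitotic entry, was at 100.0, 96.9 and 101.7 CPM in WT, 95.39, 96.50 and 93.77 in G245S and 87.42, 92.33 and 92.51 in R273H. It fell in R273H (-0.13 ± 0.03), where its dishes lay below those of both other groups. CDC20, the activator of the APC/C in mitosis, had 247.1, 248.5 and 238.1 CPM, MAD2L1 179.9, 189.2 and 188.6, TTK 169.2, 169.8 and 180.8, UBE2C 236.2, 238.1 and 229.9 and CDCA5 (sororin) 74.5, 70.9 and 70.3 CPM as means of WT, G245S and R273H, none of them called against WT.

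At the centromere and kinetochore, 2 of 7 genes (28.6%) fell in each mutant and none rose, beside 24.7% and 28.8% of all genes called in either direction. CENPE was at 81.55, 85.12 and 92.97 CPM in the WT dishes, 72.57, 76.67 and 79.76 in G245S and 77.13, 76.52 and 79.96 in R273H, all mutant dishes being below all WT dishes. It fell by 0.18 on the log2 scale in G245S and 0.15 in R273H (SE 0.04 in each, adjusted p 0.00384 and 0.00915). CENPF, a large protein of the outer kinetochore, was at 154.3, 163.7 and 165.4 CPM in WT, 140.4, 150.8 and 153.4 in G245S and 149.1, 154.4 and 154.5 in R273H. It fell in G245S (-0.12 ± 0.03) and was not called in R273H (-0.08 ± 0.03, adjusted p 0.0885), with overlapping dishes there. NDC80 and its partners NUF2 and SPC25, which bind microtubules as 1 complex with SPC24, lay between -0.05 and 0.05 in both mutants without a call. CENPA, the centromeric histone and the member with the lowest count, was at 19.1, 20.0 and 16.9 CPM as means, and its change in R273H (-0.17 ± 0.07) was not called (adjusted p 0.0706).

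In the chromosomal passenger complex, which corrects attachments of chromosomes to the spindle, CDCA8 (borealin) was at 108.3, 101.4 and 102.6 CPM in WT, 95.33, 95.03 and 95.69 in G245S and 92.22, 91.64 and 94.53 in R273H. No mutant dish reached the lowest WT dish, and CDCA8 fell by 0.13 on the log2 scale in G245S and 0.17 in R273H (SE 0.03 in each, adjusted p 0.0069 and 0.000394). The other subunits went differently: AURKB, the kinase, rose in G245S (0.09 ± 0.03) and was not called in R273H (0.03 ± 0.03), with an adjusted p of 0.246 for the difference between the mutants, BIRC5 was called lower in R273H (-0.09 ± 0.03) and INCENP, the scaffold, was called in neither (-0.03 ± 0.03 and -0.05 ± 0.03). The calls of AURKB in G245S and BIRC5 in R273H were each lost in 3 of 9 cases with a dish left out.

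Of the 8 kinesins, the motors that move and order spindle microtubules, KIF20A and KIF23 rose and KIF2C fell in G245S. In R273H, KIF20B and KIF23 rose and KIF4A fell. In each mutant 37.5% of the kinesins were called, beside 24.7% of all genes in G245S and 28.8% in R273H (48.4% and 54.9% at the members' levels). KIF20B was at 56.49, 58.54 and 64.85 CPM in the WT dishes, 62.00, 64.16 and 65.89 in G245S and 67.05, 65.64 and 66.76 in R273H, where it rose by 0.15 ± 0.04. KIF23, a motor of the central spindle, rose by 0.11 ± 0.03 in each. KIF2C, which takes microtubules apart, changed by -0.09 ± 0.03 in G245S and by -0.02 ± 0.03 in R273H without a call in the latter, and KIF4A, a chromosome-bound motor, by -0.06 ± 0.04 without a call in G245S and by -0.10 ± 0.03 in R273H. With a dish left out, KIF4A lost its R273H call in 5 of 9 cases, KIF20A its G245S call in 4 and KIF23 its G245S call in 3. The R273H calls of KIF23 and KIF20B and the G245S call of KIF2C were each lost in 2. KIF11, the motor that parts the spindle poles and the most abundant kinesin of the list, had 323.0, 329.6 and 334.5 CPM and no call, like KIF14 and KIF18A.

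The 8 genes of the spindle and cytokinesis include HMMR and ANLN, which had the largest changes of all members in G245S. HMMR, a spindle assembly protein, was at 98.73, 100.8 and 109.2 CPM in the WT dishes, 81.08, 86.99 and 93.82 in G245S and 91.77, 90.19 and 93.46 in R273H. All mutant dishes lay below all WT dishes, and HMMR fell by 0.23 on the log2 scale in G245S (SE 0.05, adjusted p 0.000455) and by 0.16 in R273H (SE 0.04, adjusted p 0.00663). ASPM, in contrast, was at 96.84, 99.91 and 100.8 CPM in WT, 104.8, 107.9 and 118.9 in G245S and 110.8, 109.8 and 112.9 in R273H, without overlap of mutant and WT dishes, and rose by 0.16 ± 0.04 in each mutant. ECT2, the exchange factor that activates RhoA for the contractile ring, was at 152.1, 156.1 and 155.4 CPM in WT, 161.7, 164.9 and 174.4 in G245S and 164.8, 167.7 and 171.5 in R273H, and rose by 0.11 ± 0.03 and 0.12 ± 0.03. TPX2, the activator of AURKA on the spindle, fell in R273H (-0.09 ± 0.02), and DLGAP5, NUSAP1 and PRC1 had no call. Of the 2 genes of chromosome structure and proliferation, TOP2A, the topoisomerase that untangles chromosomes, had 504.2, 496.0 and 491.2 CPM without a call, and MKI67, whose product Ki-67 coats mitotic chromosomes, fell in R273H (-0.10 ± 0.03) and was at 0.06 ± 0.03 in G245S (adjusted p 0.141).

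The mutants were next compared with each other. Here 6 of 53 members (11.3%) were called, 5 higher and 1 lower in G245S, beside 2.59% of all genes (1.86% higher and 0.732% lower) and 5.74% of the 1917 genes at the members' levels. All G245S dishes lay above the R273H dishes for 16 members and below them for 4. Of all 19820 genes 2305 and 1955 did so, and of the 1917 genes 379 and 280. The largest difference was in ANLN (anillin, the scaffold of the contractile ring, ENSG00000011426, chr7:36389821-36453791), at 182.9, 175.8 and 186.4 CPM in the WT dishes, 155.3, 160.8 and 163.2 in G245S and 194.7, 196.0 and 199.8 in R273H. The 3 groups did not overlap, and ANLN was on opposite sides of WT in the mutants: it fell in G245S (-0.19 ± 0.03, adjusted p 3.08e-05), rose in R273H (0.12 ± 0.03, adjusted p 0.00336) and was 0.30 ± 0.03 lower in G245S than in R273H on the log2 scale (adjusted p 1.34e-06). With the trend of coding length and GC content removed, its R273H change was 0.06 and no longer called (adjusted p 0.0525). ANLN was the only member to pass 1.2-fold in any comparison, and its call between the mutants held with each dish left out. MKI67 (ENSG00000148773, chr10:128096659-128126423) was at 228.0, 223.2 and 239.5 CPM in WT, 239.6, 234.9 and 244.5 in G245S and 215.2, 215.1 and 213.1 in R273H, 0.16 ± 0.03 higher in G245S than in R273H (adjusted p 0.0016), again with each dish left out.

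The other 4 were nearer the threshold. SPC24, a subunit of the NDC80 complex, was at 69.34, 68.84 and 75.24 CPM in WT, 75.22, 75.76 and 72.71 in G245S and 66.72, 65.92 and 64.26 in R273H, a difference between mutants of 0.18 ± 0.04 (adjusted p 0.00959) that was lost in 3 of 9 cases with a dish left out (G245S dish 1, G245S dish 2 and R273H dish 3). PLK1 was at 240.4, 239.2 and 232.9 CPM in WT, 259.0, 261.0 and 250.8 in G245S and 240.4, 234.7 and 237.5 in R273H (0.11 ± 0.03, adjusted p 0.0163, lost in 4 of 9), so that its R273H dishes lay among the WT dishes. BUB3, the partner of BUB1 and BUB1B at kinetochores, was at 193.9, 196.8 and 206.9 CPM in WT, 202.1, 207.8 and 205.7 in G245S and 185.5, 192.7 and 193.1 in R273H (0.11 ± 0.03, adjusted p 0.0406). KIF20A, a motor of cytokinesis, was at 189.6, 191.6 and 197.4 CPM in WT, 206.7, 202.2 and 203.6 in G245S and 192.6, 187.3 and 192.2 in R273H (0.10 ± 0.03, adjusted p 0.0487). The SPC24 decrease in R273H against WT (-0.12 ± 0.04) was likewise lost in 3 of 9 cases. The calls of BUB3 and KIF20A were each lost in 7 of 9 cases with a dish left out, including every case without a G245S or R273H dish. With G245S dish 1, G245S dish 2 or R273H dish 3 left out, ANLN and MKI67 were the 2 members still called.

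**Figure D4:**
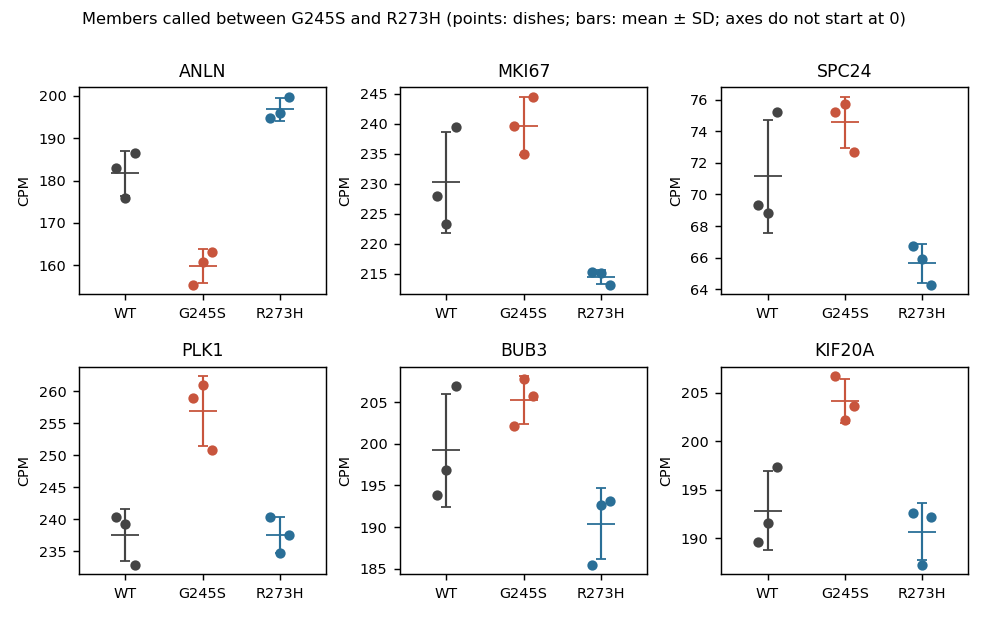
CPM (vertical axes, which do not start at 0) of the 6 members called between G245S and R273H, in WT, G245S and R273H; points are the 3 dishes and bars the mean ± SD. ANLN lies below WT in G245S and above it in R273H; in the other 5 genes the G245S dishes are above the R273H dishes, and the R273H dishes of PLK1 and KIF20A overlap the WT dishes.

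Promoter letters and fold changes were set side by side as a description. The 32 members with TTTGAA in a promoter had median log2 fold changes of 0.0072 in G245S (6 rose, 5 fell) and -0.025 in R273H (7 rose, 6 fell). The 14 matched members without it had medians of 0.049 (5 rose, 2 fell) and -0.0085 (2 rose, 3 fell). Of these, the 6 with TTTAAA had medians of -0.018 (1 rose, 2 fell) and -0.017 (none rose, 2 fell). The 8 with neither TTTGAA nor TTTAAA had 0.076 (4 rose, none fell) and 0.024 (2 rose, 1 fell). Over all genes tested, 12.6% rose and 12.1% fell in G245S, and 14.2% rose and 14.6% fell in R273H. Differences between these groups of members were not tested. ANLN, HMMR and MKI67, with TTTGAA, and BUB1, MYBL2 and SPC24, with neither TTTGAA nor TTTAAA, were all among the called genes.

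Coding length moved with the fold change over all genes, in R273H more than in G245S. In 10 equal classes of coding length, the median log2 fold change of all genes was -0.067 in the shortest and 0.020 in the longest class for G245S, and -0.089 and 0.038 for R273H. Among the members, 5 of the 11 with coding regions up to 969 nt fell in R273H and none rose. They were BIRC5, CDCA3, CDCA8, PTTG1 and SPC24, and the median over the 11 was -0.085. Over all genes, of any length, 14.6% were called lower in R273H. Medians of all genes in R273H were -0.089, -0.047 and -0.031 in the classes up to 969 nt, where the share called was not counted. Across the 53 members, Spearman's rho of coding length with the change in G245S was 0.082, with that in R273H 0.33 and with the difference of G245S from R273H -0.47, a description over genes that share the same libraries. After removal of a smooth trend with coding length and GC content, 27 members were called in G245S (19 higher, 8 lower) and 22 in R273H (9 higher, 13 lower), beside 27.3% and 30.1% of all genes. For genes at the members' levels, where calls are easier, the share in this fit is not given. ANLN (0.06, adjusted p 0.0525), BIRC5, CDCA3, KIF20B, KIF23, PTTG1 and SPC24 then lost their R273H call. AURKB (0.071, adjusted p 0.0191), CDC25A, CENPF (-0.14, 0.000124), DLGAP5, MAD2L1, NDC80, NUSAP1 and TOP2A (-0.10, 0.000148) gained one. The 19 calls of G245S all remained, and BUB3, KIF20B, MAD2L1, MKI67, PRC1, SPC24, SPC25 and UBE2C were added there. The part of coding length in these differences was not tested further.

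**Figure D5:**
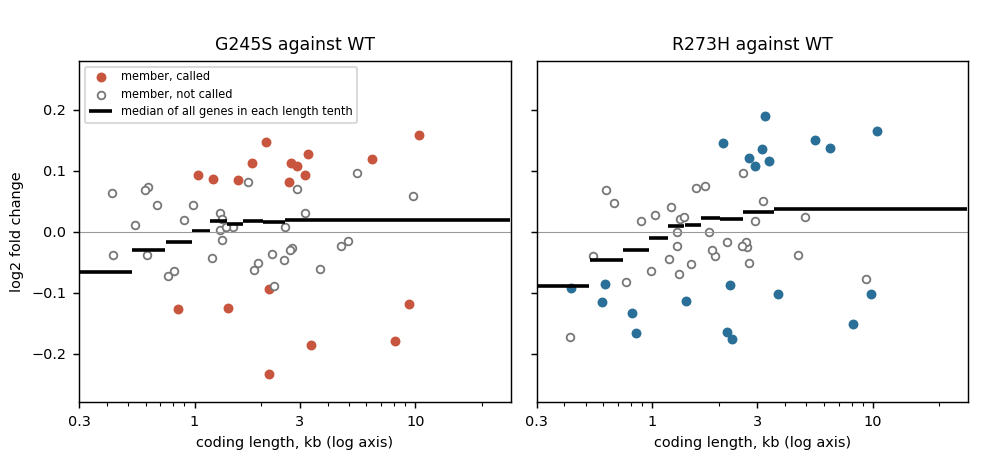
Log2 fold change against WT (vertical axes) of the 53 members against coding length in kb (horizontal log axis), for G245S (left) and R273H (right); filled points were called and black lines give the median of all genes in each of the 10 length classes. The first and last lines are at -0.067 and 0.020 for G245S and at -0.089 and 0.038 for R273H. In R273H, 5 of the shortest members are called lower, beside 14.6% of all genes of any length.

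Related lists were read in the same fit, beside the calls over all genes (24.7% for G245S, 28.8% for R273H) and over genes at the members' levels (48.4% and 54.9%). Of 7 p53-induced genes (arrest genes and MDM2), 5 fell in each mutant (CDKN1A, MDM2, GADD45A, BTG2 and PLK3), with list medians of -1.25 in G245S and -1.54 in R273H. These are genes that p53 is known to activate directly. Of 11 DREAM and MMB subunits, 2 rose and 3 fell in G245S and 3 rose and 2 fell in R273H; LIN52, a MuvB subunit, fell in G245S (-0.32 ± 0.07). Of 17 APC/C subunits and partners, 7 rose and 2 fell in G245S and 6 rose and 2 fell in R273H, with ANAPC1, the largest subunit, up by 0.33 ± 0.04 and 0.34 ± 0.04. FBXO5 (EMI1, an APC/C inhibitor) rose by 0.32 ± 0.04 in G245S and was also called higher in R273H (0.24 ± 0.04).

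Of 18 condensin and cohesin genes, which fold and hold chromosomes, 11 rose in each mutant and 1 fell in G245S, with medians of 0.13 and 0.11; NCAPD3, a condensin II subunit, rose by 0.35 ± 0.03 and 0.30 ± 0.03. Of 42 other late cell-cycle genes, 5 rose and 10 fell in G245S and 8 rose and 9 fell in R273H, with medians of -0.032 and -0.047. PKMYT1, the kinase that inhibits CDK1, rose by 0.33 ± 0.04 in G245S and was also called higher in R273H (0.20 ± 0.04). Of 28 G1/S genes, 12 rose and 4 fell in G245S and 13 rose and 4 fell in R273H, with medians of 0.09 in each. Among them MCM3 and MCM6, subunits of the replicative helicase, rose by 0.32 ± 0.02 and 0.35 ± 0.02 in G245S, E2F2 rose by 0.33 ± 0.07 in R273H, and TYMS, thymidylate synthase, fell by 0.62 on the log2 scale in G245S and 0.73 in R273H (SE 0.03 in each).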

How the data were processed

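Ribo-seq footprints were measured in 9 libraries, 3 dishes for each of the p53 constructs (WT, G245S, R273H) in HEK293T cells. The authors trimmed adapters (Trim Galore, cutadapt), extracted molecular identifiers where present (UMI-tools), removed rRNA reads (SortMeRNA) and aligned reads to GRCh38 with STAR. The deposited values are expected counts, estimated per gene and not scaled for depth or length; the counting tool, annotation release, strand setting and whether counts cover coding regions only are not given in the sources used here. Pseudogenes named after a member exist for 12 members and 15 overlap a protein-coding gene, so their estimates are less certain.

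Here the deposited expected counts were rounded to whole numbers and tested in R 4.3.3 with edgeR 4.0.16 (filterByExpr, TMM scaling, robust glmQLFit, glmQLFTest, two-sided, 1 fit of all 9 libraries by group, 6 residual degrees of freedom), with Benjamini-Hochberg adjustment over 19820 genes and calls at an adjusted p under 0.05. Intervals are 95% intervals of the fit. The code was tested on simulated data. Fold changes are relative to the other footprints of a library, since no spike-in was used here, and without matched RNA-seq, which was not used here, mRNA amount and ribosomes per mRNA cannot be told apart. P-values measure the spread between dishes of 1 line, without variation added after pooling. Of 63241 rows, 99.09% matched GENCODE v44 by identifier, which gave coordinates and coding length.

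The members and the related lists were chosen with earlier results of these data known, so their counts are descriptions. Dish values were printed for the members called between the mutants and then for those with the largest called change, up to 20 genes. Genes of related lists were named where called with a log2 change over 0.3 in size, at most 5 a list, and CDKN1A and MDM2 as a check of p53 activity. A gene named for 1 mutant by this rule can also be called in the other. Alternatives were RLE and upper-quartile scaling, DESeq2 1.42.0, a minimum fold change of 1.2, no filter on low counts, the 6 libraries compared alone, each dish left out, dish number as a block, and removal of a trend with coding length and GC content (mgcv, genes with a mean of at least 100 counts).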

Additional observations from a re-analysis of the deposited data

Results flagged for a closer look

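A test of the difference between the 2 mutants (edgeR, adjusted over all genes) picked out 6 members. In log2 fold change of G245S against R273H, ANLN was at -0.30, MKI67 at 0.16, SPC24 at 0.18, PLK1 at 0.11, BUB3 at 0.11 and KIF20A at 0.10. ANLN and MKI67 kept their call with any single dish left out, whereas BUB3 and KIF20A lost it in 7 of 9 cases, PLK1 in 4 and SPC24 in 3. Removal of the trend with coding length and GC content ended the call of SPC24 and left the difference of ANLN at -0.25, with its R273H change against WT at 0.06 and no longer called (adjusted p 0.0525). Groups of 3 dishes were not searched for outlying samples.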

How the results depend on the processing

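No direction of a called member reversed under any alternative run, and all lost calls kept their sign, but sizes could shrink. With the coding length and GC trend removed, the R273H change of BIRC5 went from -0.092 to -0.0024 (edgeR adjusted p 0.96). That of SPC24 went from -0.12 to -0.022 (adjusted p 0.724). BIRC5 and SPC24 each lost their R273H call in 9 of 18 alternatives, the 1.2-fold minimum included. Under every alternative other than a minimum fold change of 1.2, 2 of the 6 calls between the mutants were kept. Against that minimum, 0 members were called in any comparison. At an unadjusted edgeR p under 0.05 against no change, 22 were in G245S, 29 in R273H and 14 between the mutants. Over all 19820 genes, 7083, 7697 and 3120 were. DESeq2 called 14, 17 and 6 members, beside 20.3%, 22.2% and 5.83% of the genes it tested. With the coding length and GC trend removed, 19 members were called higher in G245S against WT (20 with the replicate block added), and the median of G245S against R273H became 0.040 (also with the block, when 9 were called higher). In R273H against WT, 7 members were called lower with upper-quartile scaling and 7 without a filter on low counts. Between the mutants 3 were called higher with RLE scaling, with upper-quartile scaling and without the filter, BUB3 and KIF20A being lost each time. The causes were not tested.

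With 1 dish left out, 6 to 13 members were called higher and 5 to 7 lower in G245S (6 higher without WT dish 2 or G245S dish 2, 7 without WT dish 1), 7 to 11 higher and 6 to 12 lower in R273H (6 lower without WT dish 3, 7 without R273H dish 1), and 1 to 5 higher and 1 lower between the mutants (1 without G245S dish 1, G245S dish 2 or R273H dish 3, 2 without R273H dish 2, 3 without WT dish 2 or R273H dish 1).

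Dish numbers are shared across groups, but no label says that they pair dishes. Deviations of same-numbered dishes correlated at 0.044 to 0.23 over 9 pairs of dishes, against -0.19 to 0.060 for other pairs, and in 17 of 18 cases a dish correlated best with its own number, a hint from the data and not from the design. With the replicate block, 21 members were called in G245S, 28 in R273H and 10 between the mutants (29.2%, 33.0% and 6.37% of all genes), where 3 were then lower, and the calls made without the block all remained. Shares at the members' levels are not given for this fit. TTTGAA was in 53.4% of the members' promoters within 100 bases before to 50 after the start, against 6.8% of all. SEs were wider at low counts (0.07 for CENPA and PLK4 against 0.03 for CCNB1 in G245S), and 3 dishes and 1 line a group leave the spread between lines unknown.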
